A study of Mus musculus with 11 samples.

Results

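Hippocampal RNA was examined for 9 genes that mark adult neurogenesis and proliferation in the dentate gyrus: Nes, Eomes, Mki67, Top2a, Dcx, Sox11, Neurod1, Igfbpl1 and Calb2. The 9 genes were chosen by name, from what they are known to mark, out of 38293 genes in the count tables, and all 9 were among the 20589 genes with at least 10 counts in total that were tested. The mice were 14-week-old wildtype F1 hybrids of the cross 129S6/SvEv x C57BL/6J. CD mice (n = 6, 3 of each sex) came from dams fed 2.3 mg folic acid per kg of diet, and FD mice (n = 5, 3 females and 2 males) came from dams fed 40 mg per kg. The diets differed only before mating, and all dams and offspring received the control diet from mating onwards, so no mouse of either group ate the enriched diet itself. Each library was made from the RNA of a hippocampus sample as a whole, in which the neurogenic niche is a small part of the tissue. The litter of each mouse is not given in the sources used here, and p-values therefore measure the spread between these 11 mice.

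In the adult rodent dentate gyrus, radial glia-like stem cells that contain the intermediate filament nestin (Nes) give rise to transit-amplifying progenitors that express the T-box factor Tbr2 (Eomes). These cells divide, become neuroblasts and immature granule cells that contain doublecortin (Dcx), pass through a stage with calretinin (Calb2), and mature into calbindin-containing granule cells. Mki67 (the antigen Ki-67) and Top2a (topoisomerase II alpha) are made by cycling cells of any kind, Sox11 and Neurod1 are transcription factors of newborn neurons, and Igfbpl1 is a secreted binding-protein-like factor found in neuroblasts. Several of the genes have other sources in a whole hippocampus. Nestin is also made by endothelial cells and pericytes, Neurod1 stays on in mature granule cells, and calretinin is made by mossy cells and a class of interneurons. In bulk RNA a smaller number of cells and less RNA per cell cannot be told apart.

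Mki67 and Top2a are the cycling-cell genes of the set, and promoters of such genes are known for CCAAT boxes and for the CHR element, a short motif of genes that peak late in the cell cycle. The 250 bases upstream of their RefSeq start sites (GRCm38.p6) are shown because they hold the largest numbers of both motifs among the 7 markers with a promoter entry in the RefSeq table. The Mki67 sequence is chr7:135716380-135716629 and the Top2a sequence is chr11:99024190-99024439, both on the minus strand, 5′ to 3′, with capitals marking the letters CCAAT or TTTGAA on either strand (ATTGG or TTCAAA when reversed).
Mki67: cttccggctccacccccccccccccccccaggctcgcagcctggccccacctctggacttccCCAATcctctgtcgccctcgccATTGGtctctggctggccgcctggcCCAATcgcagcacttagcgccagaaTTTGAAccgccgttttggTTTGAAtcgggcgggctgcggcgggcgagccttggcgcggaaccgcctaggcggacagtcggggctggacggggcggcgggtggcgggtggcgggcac
Top2a: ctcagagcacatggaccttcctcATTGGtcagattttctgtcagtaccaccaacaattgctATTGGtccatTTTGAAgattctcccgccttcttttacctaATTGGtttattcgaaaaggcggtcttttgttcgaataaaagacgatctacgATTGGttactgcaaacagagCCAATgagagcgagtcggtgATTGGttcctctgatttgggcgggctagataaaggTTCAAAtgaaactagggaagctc
The Mki67 window held 3 CCAAT and 2 TTTGAA matches, and the Top2a window held 6 and 2. Of 32851 windows of the same length upstream of RefSeq start sites, 33.8% held at least 1 CCAAT and 16% at least 1 TTTGAA. The windows of Neurod1 and Nes held neither, that of Eomes held 2 CCAAT, that of Sox11 held 1 of each, and 1 of the 2 windows of Dcx held 1 CCAAT. The 2 windows also differed in base composition, with 71.6% G and C upstream of Mki67 and 43.6% upstream of Top2a. A match of letters is a description of the window and not a binding site.

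Depth limits what could be seen in the rarest markers. Libraries held 11737554 to 44447006 gene counts, and 3 counts corresponded to 0.0675 to 0.256 CPM (counts relative to library size, with edgeR's trimmed mean of M values). Reads on no gene made up 7.01% to 11% of all alignments. Replicate libraries differed by more than sampling noise, with a chi-square per degree of freedom of 4.39 to 30.2 over 25 pairs of mice from the same group.

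Compared per length, as CPM per kilobase of exon, Calb2, Neurod1 and Dcx stood above the other 6 markers, while Sox11 lay at the level of the cycling-cell genes. Calb2 was at 30.4 ± 4.68 (SD, n = 11 mice), Neurod1 at 9.64 ± 0.496 and Dcx at 2.03 ± 0.23 CPM per kilobase. Nes followed at 1.61 ± 0.157 and Igfbpl1 at 0.515 ± 0.119 CPM per kilobase. At the low end, Mki67 was at 0.289 ± 0.0559, Sox11 at 0.261 ± 0.0581, Top2a at 0.185 ± 0.0459 and Eomes at 0.0981 ± 0.0555 CPM per kilobase. Each neighbour in this order kept its place in 11 of 11 mice, except that Mki67 was above Sox11 in 8 mice and Sox11 above Top2a in 9. These 3 levels therefore cannot be ordered in every animal.

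The spread between mice, set against what counting alone would give, separated the markers further. For Neurod1 the coefficient of variation over 11 mice was 5.15%, near the 4.42% given by counting error. For Calb2 it was 15.4% against 3.16%, and for Dcx 11.3% against 4.46%. For Eomes it was 56.6% against 40.9%. Calb2 and Dcx thus varied most relative to their counting error. The counting error of Eomes, read from 2 to 23 counts per mouse, was the largest of the 9. For the other 5 markers the coefficient lay between 9.76% (Nes) and 24.8% (Top2a), against 6.98% to 17.8% from counting.

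The comparison of FD with CD mice asks whether the mother's folic acid intake before conception left a mark on these genes in the adult offspring. None of the 9 markers passed the threshold (quasi-likelihood test of edgeR, Benjamini-Hochberg adjusted over all tested genes, adjusted p under 0.1), and each had an adjusted p of 1. Across all tested genes 14 of 20589, or 0.068%, passed, all 14 higher in FD mice, and 25 passed when the mice were blocked by sex and number, 8 with edgeR's own filter on low counts, and 3 (without FD female 1 or FD female 3) to 12 as single mice were left out. At an unadjusted p under 0.05 edgeR listed 1 of the 9 markers, Eomes, beside 2.59% of all genes (534), and DESeq2 called 0 at the adjusted threshold. The values of CD and FD mice overlapped for all 9 markers. The share of all genes that overlapped is not given here, so this count only describes the markers. In the fit 6 markers were higher and 3 lower in FD mice, and the median of the 9 log2 fold changes (FD minus CD) was 0.08, beside a median of -0.004 over all genes and a median size of 0.07.

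**Figure D1:**
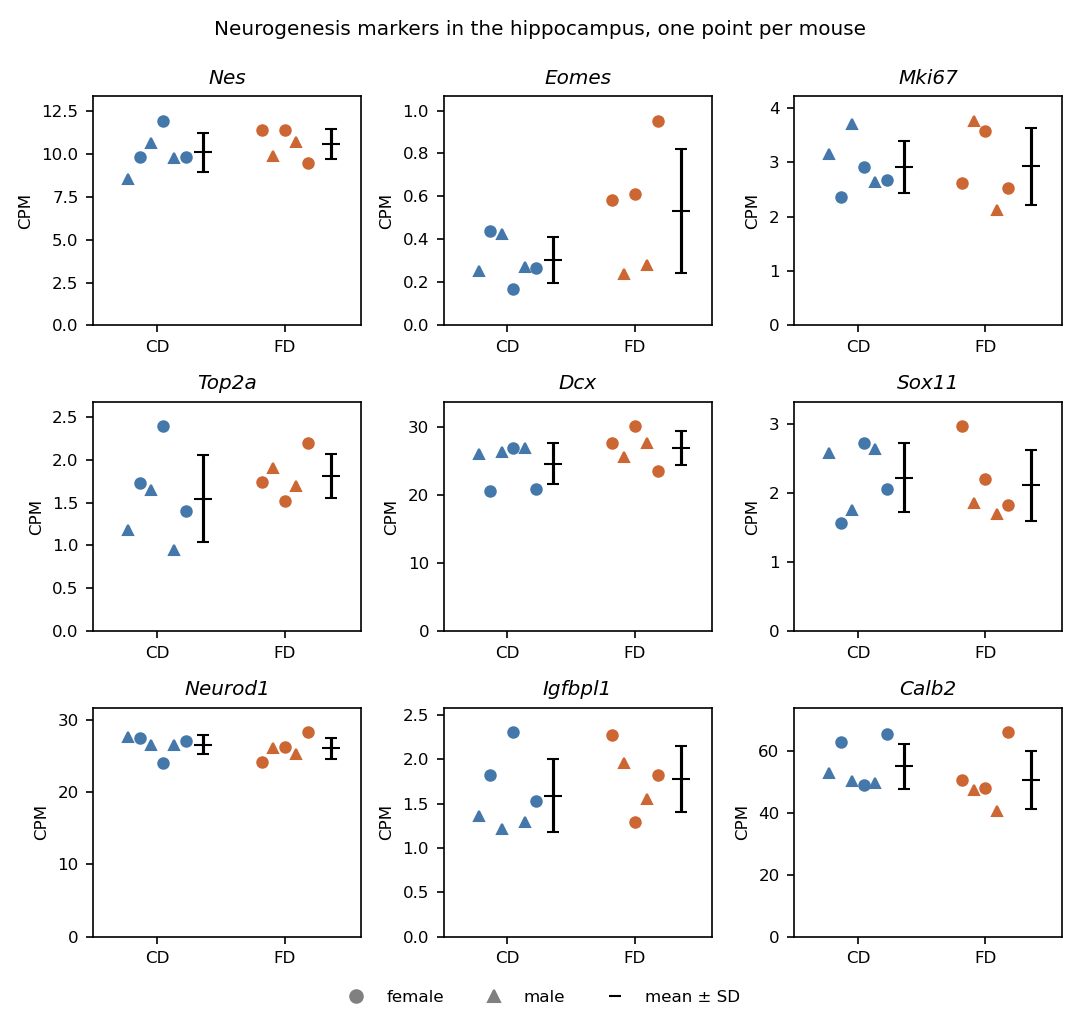
Level of each marker in CPM (y axis, from 0) in the 11 mice by maternal diet (x axis). Circles are females, triangles are males, and the black bar is the mean ± SD of the group (n = 6 CD, n = 5 FD). The groups overlap in every panel, and the 3 FD females stand above the other mice only for Eomes.

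Nes, at chr3:87971078-87980451 on the plus strand of GRCm38, encodes the filament protein by which neural stem cells are commonly stained. It ranged from 8.52 to 11.9 CPM in CD mice, with a median of 9.84. In FD mice it was at 11.4, 11.4 and 9.48 CPM in the females and at 9.90 and 10.7 CPM in the males. Every FD value lay within the CD range. On the log2 scale FD differed from CD by 0.08 (SE 0.09, 95% interval -0.11 to 0.27), and the exact two-sided permutation test over 462 divisions of the mice gave p = 0.433.

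Eomes, at chr9:118478212-118486132 on the plus strand, marks the transit-amplifying progenitors and showed the largest estimate of the 9. In CD females it was at 0.440, 0.171 and 0.266 CPM, and in CD males at 0.251, 0.424 and 0.271 CPM. In FD females it was at 0.581, 0.609 and 0.952 CPM, and in FD males at 0.238 and 0.283 CPM. All 3 FD females were thus above all 6 CD mice, and both FD males lay inside the CD range. The log2 fold change was 0.81 (SE 0.35, 95% interval 0.07 to 1.55), with an exact permutation p of 0.119, and the smallest p this design allows is 0.0022. The value in CD female 2 rested on 2 counts, under that library's floor of 3. Without FD female 3 the log2 fold change was 0.48, and in the males alone it was -0.20. Eomes shares 118 exon bases with the antisense gene Gm33460, and whether counting used the strand is not given in the sources used here.

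Mki67, at chr7:135689784-135716361 on the minus strand, did not separate the groups. It ran from 2.36 to 3.71 CPM in CD mice, with a median of 2.78. The FD values were 2.62, 3.58 and 2.53 CPM in females and 3.76 and 2.12 CPM in males, so that the 2 FD males held the highest and the lowest value of all 11 mice. FD minus CD was 0.01 on the log2 scale (SE 0.16, 95% interval -0.33 to 0.35), and the exact permutation p was 0.948.

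Top2a, at chr11:98992943-99024189 on the minus strand, the enzyme that untangles chromosomes before they separate, was at 0.948 to 2.39 CPM in CD mice, with a median of 1.52. The FD females were at 1.74, 1.52 and 2.19 CPM and the FD males at 1.90 and 1.70 CPM. All 5 FD mice were above the CD median, yet within the CD range. Its log2 fold change was 0.32 (SE 0.20, 95% interval -0.10 to 0.75), with an exact permutation p of 0.255. It was 0.18 without CD male 3, 0.04 in females alone and 0.61 in males alone. With the replicate block, which takes no diet difference from the unpaired CD male 3, it was also 0.18.

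Dcx, at chrX:143855842-143933311 on the minus strand, encodes the microtubule-associated protein that defines neuroblasts and young granule cells. The CD females were at 20.5, 26.9 and 20.9 CPM, and the CD males at 26.1, 26.3 and 27.0 CPM. The FD females were at 27.7, 30.1 and 23.6 CPM, and the FD males at 25.7 and 27.6 CPM. The 2 lowest mice were CD females 1 and 3, and the remaining 9 ran from 23.6 to 30.1 CPM without a break between the diets. The log2 fold change was 0.13 (SE 0.09, 95% interval -0.06 to 0.31), with an exact permutation p of 0.21. On a linear scale that interval ran from 0.961-fold to 1.24-fold.

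Sox11 and Igfbpl1, the other genes of newborn neurons at low level, also overlapped. Sox11, at chr12:27334264-27342574 on the minus strand, had a log2 fold change of -0.04 (SE 0.19, 95% interval -0.43 to 0.36, exact permutation p = 0.708). Igfbpl1, at chr4:45809468-45826923 on the minus strand, had a log2 fold change of 0.25 (SE 0.18, 95% interval -0.13 to 0.64, exact permutation p = 0.377). Sox11 ran from 1.57 to 2.73 CPM in CD mice and from 1.70 to 2.96 CPM in FD mice. Igfbpl1 ran from 1.22 to 2.30 CPM in CD mice and from 1.29 to 2.27 CPM in FD mice. The sign of the Sox11 estimate depended on single mice, since it ran from -0.22 to 0.04 as single mice were left out.

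Neurod1, at chr2:79452521-79456751 on the minus strand, was the steadiest of the 9 and had the narrowest interval. It ran from 24.1 to 27.7 CPM in CD mice and from 24.2 to 28.3 CPM in FD mice. The log2 fold change was -0.03 (SE 0.06, 95% interval -0.16 to 0.09, exact permutation p = 0.532), so that changes beyond 0.896-fold and 1.07-fold lay outside the interval. Neurod1 shares 201 exon bases with Cerkl on the same strand and 154 with the antisense gene Gm26755, which had 648 and 9 counts in all mice together.

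Calb2, at chr8:110137502-110168210 on the minus strand, was the most abundant. The CD females were at 62.7, 48.8 and 65.3 CPM and the CD males at 52.9, 50.3 and 49.7 CPM. The FD females were at 50.5, 47.9 and 66.0 CPM and the FD males at 47.3 and 40.7 CPM. The 3 highest mice were females, 2 of them CD and 1 FD, and the lowest 2 were the FD males. The log2 fold change for diet was -0.12 (SE 0.11, 95% interval -0.34 to 0.11), with an exact permutation p of 0.351. It was -0.05 without FD male 2, -0.06 without CD female 3, -0.07 without CD female 1 and -0.23 without FD female 3.

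**Figure D2:**
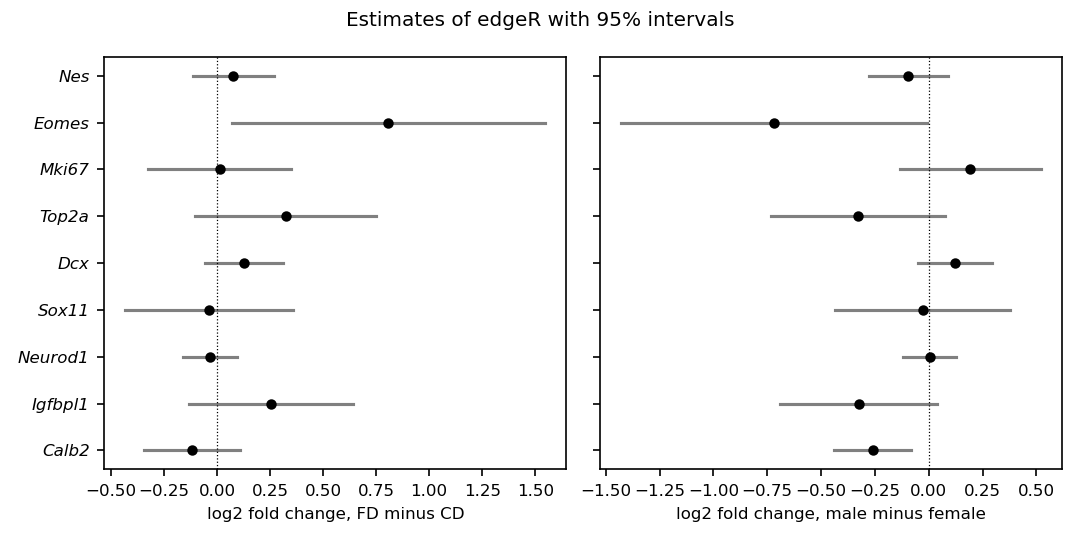
Log2 fold changes of the 9 markers from edgeR (points) with 95% intervals (bars), FD minus CD on the left and male minus female on the right, the dotted line marking 0. The intervals that leave out 0 are those of Eomes for diet and of Eomes and Calb2 for sex, and none of these passed the adjusted threshold.

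Sex was compared in the same way with maternal diet as a term, 6 females against 5 males. Of the 9 markers 0 passed with edgeR, beside 6.11% of all tested genes (1257 of 20589). At an unadjusted p under 0.05 there were 2 of the 9, Eomes and Calb2, beside 20.3% of all genes, so that this count is near the background. With DESeq2 1 passed, Calb2, beside 1445 of 20589 genes. Calb2 was at 56.9 ± 8.66 CPM in females and 48.2 ± 4.62 CPM in males, a log2 fold change (male minus female) of -0.26 (SE 0.08, 95% interval -0.44 to -0.08) with an edgeR adjusted p of 0.104. The estimate was -0.21 in CD mice alone and -0.31 in FD mice alone. It passed with DESeq2 (adjusted p = 0.0924), without the filter on low counts (adjusted p = 0.0011), without CD female 2 (adjusted p = 0.0174) and without FD female 2 (adjusted p = 0.0509). Each of these fits also called more genes for sex than the main fit. Without the filter 2645 of 26269 genes passed. Without CD female 2 it was 3244 of 20496, and without FD female 2 it was 2762 of 20459. Calb2 thus sat at the edge of the threshold. Eomes was at -0.72 (SE 0.34, edgeR adjusted p = 0.24), Igfbpl1 at -0.33 (SE 0.17, adjusted p = 0.304) and Top2a at -0.33 (SE 0.19, adjusted p = 0.352). The remaining 5 had log2 fold changes between -0.10 (Nes) and 0.19 (Mki67). Of the 9 markers 6 were lower and 3 higher in males.

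The interaction term asked whether the diet difference was unlike in the sexes. None of the 9 passed, and 0% of all genes did, with 391 genes at an unadjusted p under 0.05 of which 0 were markers, and DESeq2 also called 0 of the 9. Eomes had an interaction of -1.32 (SE 0.66, 95% interval -2.72 to 0.08), Sox11 of -0.66 (SE 0.37) and Top2a of 0.55 (SE 0.37) on the log2 scale. The interval of Eomes was wide and took in 0, so that the higher values of the 3 FD females were not shown to be particular to females.

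The share of reads on no gene differed between mice and moved with 2 of the 9 markers, near the share of all genes that did so. It was 8.79% ± 1.2 in females and 10.2% ± 0.781 in males (exact permutation p = 0.0628), and it was 9.23% ± 1.34 in CD against 9.64% ± 1.15 in FD mice (exact permutation p = 0.593). Ambiguous reads were at 1.46% ± 0.0366 in females and 1.4% ± 0.0212 in males (exact permutation p = 0.0195), and multiple alignments were at 14.9% ± 0.815 and 14.1% ± 0.325 (exact permutation p = 0.0823). With this share as a numeric term beside diet, added after the data were seen, 18.4% of all tested genes passed with edgeR (3783 genes). That count was 676 without CD female 1 and 1743 without FD female 3, and between 2967 and 4483 without each of the others. Calb2 fell by 0.13 on the log2 scale per percentage point (SE 0.03, adjusted p = 0.0153), and Dcx rose by 0.09 per percentage point (SE 0.03, adjusted p = 0.0618). The other 7 markers did not pass, among them Mki67 with 0.14 (SE 0.06, adjusted p = 0.134) and Eomes with -0.27 (SE 0.14, adjusted p = 0.206).

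Sex and the share could be separated only in part. With sex as a further term the slopes of Dcx and Calb2 were 0.09 and -0.10, with adjusted p-values of 0.248 and 0.245, while 3.1% of all genes still passed. Conversely, the sex estimate of Calb2 was -0.11 with the share as a term (adjusted p = 0.791), and that of Dcx went from 0.12 to -0.01. Over all genes the count of sex calls was 9 in that fit, and 5 in CD mice alone and in FD mice alone. Whether sex or the share underlies the values of Calb2 and Dcx cannot be told apart here. The slope of Calb2 passed without each mouse in turn (adjusted p 0.0082 to 0.0944), whereas that of Dcx did not pass without CD female 1 (adjusted p = 0.41), CD male 3 (adjusted p = 0.107) or FD female 3 (adjusted p = 0.187). With the share as a term the diet estimate of Calb2 was -0.07 in place of -0.12, that of Dcx 0.10 in place of 0.13, that of Eomes 0.88 in place of 0.81, and that of Mki67 changed sign to -0.03.

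**Figure D3:**
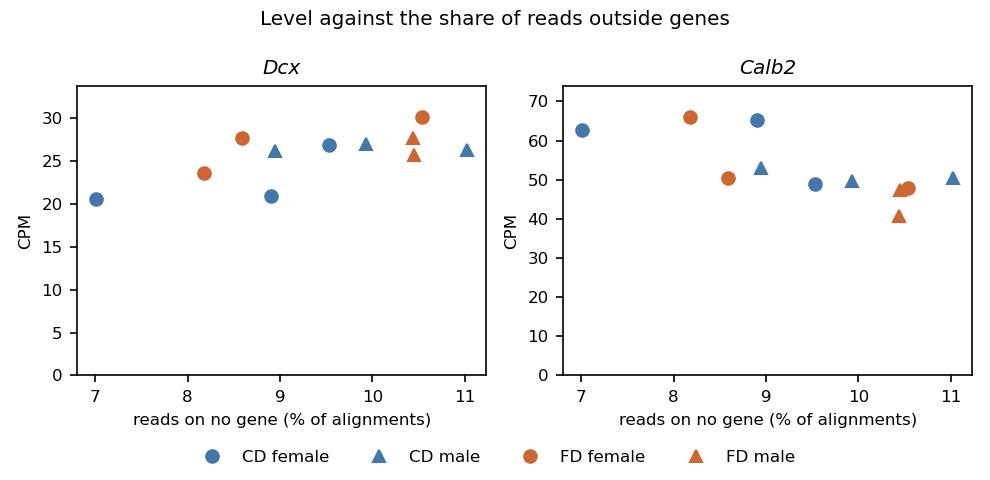
Level of Dcx (left) and Calb2 (right) in CPM, from 0, against the percentage of alignments on no gene, 1 point per mouse, blue for CD and orange for FD, circles for females and triangles for males. The 3 mice with the most Calb2 (CD females 1 and 3 and FD female 3, at 7.01%, 8.91% and 8.18%) are the 3 with the least Dcx.

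The markers did not vary as a set. After the mean of each diet and sex group was removed, the median Pearson r of the 36 pairs over 11 mice was -0.06, and 17 were positive. These correlations are descriptions over mice that share depth and composition effects. With 4 group means removed they rest on fewer independent values than 11. Counting error was a large part of the spread of Mki67 (19.3% against 13.4% from counting) and Top2a (24.8% against 17.6%). The same holds for Sox11, Igfbpl1 and Eomes, and such error can draw r toward 0. Mki67 and Top2a, both genes of cycling cells, had r = 0.28 (Spearman 0.35), and -0.02 without removing the group means. Dcx and Calb2, which mark neighbouring stages, ran in opposite directions, with r = -0.96 (Spearman -0.97), -0.94 without the 2 most distant mice, and -0.83 without removing the group means. Dcx ran with Nes (r = 0.81) and against Neurod1 (r = -0.81), and Calb2 ran with Neurod1 (r = 0.85) and against Nes (r = -0.86). Without removing the group means these 4 were 0.48, -0.55, 0.65 and -0.45, and without the 2 most distant mice 0.64, -0.57, 0.68 and -0.75. Eomes and Sox11 had r = -0.94, but -0.22 without removing the group means.

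**Figure D4:**
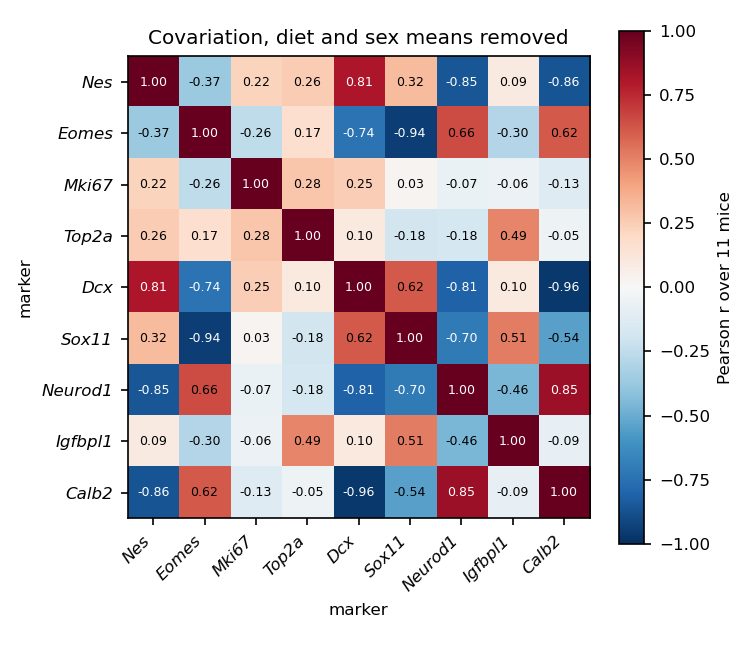
Pearson r of log2 CPM between the 9 markers over 11 mice after the mean of each diet and sex group was removed, red for positive and blue for negative. Dcx and Nes stand against Calb2 and Neurod1, and Mki67 and Top2a stand near 0 with most of the others.

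Among the 14437 genes whose mean reached 1 CPM, those most like Dcx in this measure were Cep350 (r = 0.98), a centrosomal protein, the unnamed ENSMUSG00000078821 (r = 0.98) and the tight-junction protein gene Tjp1 (r = 0.98). Among those most like Calb2 were Fam98b (r = 0.98) and Banf1 (r = 0.97). For the cycling-cell markers they were Dnah11, Tgds and Rmc1 (r = 0.95 each) for Mki67, and BC024978 (r = 0.95), Pcdhb17 (r = 0.91) and Lmf2 (r = 0.88) for Top2a. No list gene of the cell cycle was among them, but only 3 of 14437 genes are named per marker. The markers themselves and list genes with a mean under 1 CPM could not appear, so this absence carries little information. For Nes they were Ano1 (r = 0.96), A730081D07Rik (r = 0.95) and Ecm2 (r = 0.95), and for Eomes they were Dnajc17 (r = 0.98), Marveld2 (r = 0.96) and Gabrd (r = 0.96). For Sox11 they were Zfp971 (r = 0.95), Gpr26 (r = 0.94) and Tbc1d9 (r = 0.92), for Neurod1 Pdhb, Mrfap1 and Chn1 (r = 0.98 each), and for Igfbpl1 Hs1bp3 (r = 0.96), Sash1 (r = 0.95) and 4632415L05Rik (r = 0.95).

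For Dcx, Calb2, Nes, Neurod1, Sox11 and Eomes transcript length went along with these likenesses. The 961 genes with r over 0.8 to Dcx had a median exon length of 9.02 kilobases, and the 829 genes with r over 0.8 to Calb2 had a median of 2.8 kilobases, beside 4.48 kilobases over all genes compared. Dcx itself has 12647 bases of exon and Calb2 has 1743. The genes like Nes (7.21 kilobases) and Neurod1 (3.39 kilobases) lay on the side of their own marker, with 6416 and 2729 bases. For Mki67 (10061 bases) and Top2a (9013 bases) the medians were 4.65 and 4.62 kilobases, near that of all genes. The genes like Sox11 (8311 bases) and Eomes (4155 bases) had medians of 7.65 and 2.88 kilobases, on the side of their marker, while those like Igfbpl1 (3250 bases) had a median of 5.58 kilobases, on the other side. Genes with r over 0.8 numbered 312 for Nes, 597 for Neurod1, 98 for Mki67 and 38 for Top2a. They numbered 117 for Sox11, 295 for Eomes and 137 for Igfbpl1. The part of transcript length in the opposition of Dcx and Calb2 was not tested.

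Longer lists of genes of each stage were read in the diet fit as counts. The lists also hold the 9 markers themselves. They are not specific to a stage. Neurod6 (278 CPM on average) of the immature neuron list is read below as a gene of hippocampal neurons. Gfap (358 CPM) of the stem and progenitor list is also made by astrocytes. The counts and medians therefore do not isolate the cells of each stage. In the cell cycle list (34 genes, from replication factors such as Mcm2 to mitotic genes such as Ccnb1) 18 were higher and 16 lower in FD mice, with a median log2 fold change of 0.01. In the immature neuron list (22 genes) 11 were higher and 11 lower, median 0.00, and in the neural stem and progenitor list (20 genes) 10 were higher and 10 lower, median 0.00. In the mature granule cell list (10 genes) 6 were higher and 4 lower, median 0.02. No gene of these lists passed with edgeR or DESeq2, and at an unadjusted p under 0.05 there were 0, 0, 2 (Eomes and Id4) and 0, beside 2.59% of all genes. All 4 medians were near that of all genes.

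**Figure D5:**
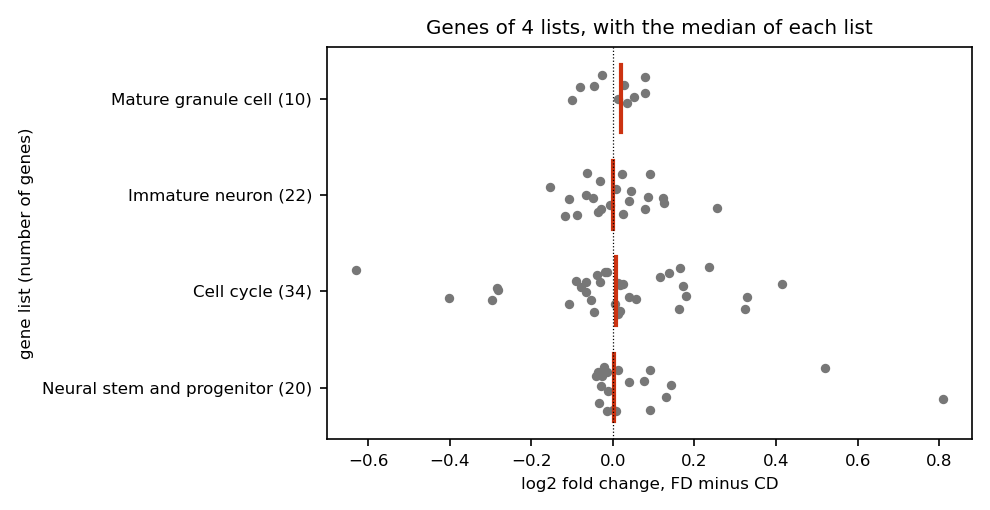
Log2 fold change, FD minus CD, of each gene (grey points, jittered vertically) in 4 lists, with the list median as a red bar. The medians lie between 0.00 and 0.02, and the points far from 0 are genes of low count such as Eomes at 0.81 and Ube2c at -0.63.

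The 3 members of each list with the smallest p for diet are given here, also where none passed. In the cell cycle list these were Kif20a, a mitotic kinesin, at -0.28 (SE 0.14), Top2a, and the ubiquitin-conjugating enzyme gene Ube2c at -0.63 (SE 0.47), read from 2 to 8 counts per mouse. In the immature neuron list they were the secreted guidance factor gene Sema3c at 0.12 (SE 0.07), Dcx and Igfbpl1. In the stem and progenitor list they were Eomes, the inhibitor of differentiation Id4 at 0.14 (SE 0.07), and the proneural factor Neurog2 at 0.52 (SE 0.29). In the granule cell list they were Prox1, the fate determinant of granule cells, at 0.08 (SE 0.07), C1ql2 at -0.10 (SE 0.10) and Dsp at 0.08 (SE 0.10). Each of these had an edgeR adjusted p of 1.

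Between the sexes, 6 genes of these lists (34, 22, 20 and 10 genes) passed with edgeR. This is near the background of 6.11% of all genes. Of the 6, Tubb3 (adjusted p = 0.0044), Tubb2b (0.0031), Mfge8 (0.0076) and Uhrf1 (0.0169) also fell with the share of reads on no gene, which was 8.79% in females and 10.2% in males, and 9 genes in all passed for sex with that share as a term. Lower in males were Uhrf1 at -0.65 (SE 0.21), Tubb3 at -0.27 (SE 0.07), Tubb2b at -0.24 (SE 0.07), Mfge8 at -0.21 (SE 0.06) and Gfap at -0.17 (SE 0.05). St8sia4, an enzyme that adds polysialic acid to NCAM, was higher in males at 0.21 (SE 0.06). Their adjusted p-values lay between 0.0665 (Tubb3) and 0.0981 (Uhrf1). Tubb3 and Tubb2b are tubulins of neurons, Gfap is the filament of astrocytes and radial glia, and Uhrf1 acts in the maintenance of DNA methylation in dividing cells.

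Markers of other cells that could supply these transcripts were read alongside, as sums of CPM over each list. The genes listed for calretinin-type interneurons (Vip, Calb2, Cck, Htr3a) summed to 219 to 311 CPM in CD and 201 to 280 in FD mice. Of this Cck held 164 CPM and Calb2 itself 52.9 CPM on average. The sum thus mostly reads Cck, which is not particular to these interneurons. Cck was lower in males past the threshold. The 4 genes of mossy cells (Drd2, Csf2rb2, Calcrl, Ghrh) summed to 14.4 to 18.6 CPM in CD and 15.7 to 20.4 CPM in FD mice. The 4 endothelial genes, beside Nes, summed to 93.2 to 137 CPM in CD and 104 to 142 CPM in FD mice, and the 4 mural genes to 164 to 198 and 154 to 222 CPM. None of these genes passed for diet with edgeR.

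For neuroblasts of the subventricular zone, whose genes Dlx1, Dlx2, Dlx5, Dlx6, Sp8 and Sp9 also mark interneurons, the sum was 45.7 to 54.9 CPM in CD and 44.3 to 55.5 CPM in FD mice, of which Dlx1 held 34.1 CPM on average. The choroid plexus list (Ttr, Otx2, Prlr, Kl, Folr1, Aqp1) summed to 34.5 to 85.9 CPM in CD and 30.2 to 43.1 CPM in FD mice. Of this Kl held 23.5 CPM on average, at 21.8 to 25.0 CPM across the mice, so a steady part of the sum reads Kl. The defining gene Ttr ran from 3.35 to 54.7 CPM, at 54.7 in CD female 3, with a log2 fold change for diet of -1.19 (SE 0.47, edgeR adjusted p = 1). According to the study's methods the samples had been screened by qPCR for Otx2 and Prlr to keep choroid plexus out. The 3 GABA neuron genes summed to 646 to 702 and 674 to 711 CPM, the 4 ependymal genes to 13.4 to 20.2 and 13 to 20.9 CPM, the 4 genes of oligodendrocyte progenitors to 175 to 192 and 179 to 203 CPM, the 4 microglial genes to 191 to 218 and 192 to 209 CPM, and the 4 thalamic genes to 91.6 to 115 and 93.3 to 117 CPM, in CD and FD mice. Foxj1 of the ependymal list and Olig2 of the progenitor list were lower in males past the threshold, beside 6.11% of all genes. Foxj1, Olig2 and Cck also fell with the share of reads on no gene (edgeR adjusted p 0.0235, 0.0677 and 0.0065). With that share as a term 9 genes in all passed for sex. The genes listed for hippocampal neurons, Prox1, C1ql2, Wfs1 and Neurod6, summed to 601 to 659 CPM in CD and 556 to 643 CPM in FD mice. Of this Neurod6 held 278 CPM and Wfs1 160.5 CPM on average, and no list of cortical genes was read beside them. The granule cell genes Prox1, C1ql2, Dsp and Plk5 summed to 242 to 294 and 248 to 286 CPM. The part of these cells in the values of the 9 markers was not tested.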

How the data were processed

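RNA of 11 hippocampus samples was sequenced as 50 bp single-end reads. According to the study's methods and the labels, the authors trimmed the reads, aligned them to GRCm38 (mm10) with STAR and counted unique alignments per gene with featureCounts. The deposited values are raw counts per gene, not normalized, and rows for reads on no gene, ambiguous reads and multiple alignments were kept out of library sizes and tests. In each library they made up 7.01% to 11%, 1.38% to 1.5% and 13.7% to 16% of all alignments. The annotation used for counting is not given in the sources used here. GENCODE vM21 matched 36429 of the 38293 gene IDs (95.1%) and gave names, coordinates and exon lengths.

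Genes with 10 or more counts summed over the mice were tested with edgeR 4.0.16 in R 4.3.3 (quasi-likelihood test, threshold 0.1), with diet alone, with diet and sex, and with their interaction. DESeq2 1.42.0 was an alternative, next to other size factors, filters, covariates, each sex or diet alone and leaving out each mouse. Single markers were also compared on mean log2 CPM with an exact two-sided permutation test (Python 3.11.15). Covariation used log2 CPM with a prior count of 2. The edgeR fit with diet alone was tested on simulated counts with known changes. The other fits, the permutation test and the correlations were not.

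Samples were grouped by the labels. Same-sex, same-numbered CD and FD mice deviated together in all 5 pairs (r = 0.307 to 0.54), and a fit blocked by pair is given beside the unblocked one. Same-sex mice of other numbers correlated from -0.063 to 0.526, so these r do not single out the number. With sex removed, 2 of 5 pairs stayed over 0.1 (0.005 to 0.386), and the labels do not say what a number marks. CD male 3 is in no pair, so the blocked fit took no diet difference from it.

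The members and lists were chosen with earlier results of these data known. Genes named are the 9 markers, the 3 genes most like each by r (1 of those of Calb2 is not reported here), the 3 list members with the smallest p for diet, and list members past the threshold, the latter for sex after their values were seen. The test of the share of reads on no gene was added after the data were seen. Promoter windows come from the RefSeq table for GRCm38.p6, which held 7 of the 9 markers.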

Additional observations from a re-analysis of the deposited data

Results flagged for a closer look

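Each marker was examined in CD and in FD mice for a mouse far from the others of its group, 18 groups in all, and 1 stood out where chance gives about 1 in 20. Neurod1 was at 24.07 CPM in CD female 2, the lowest of the 6 CD mice, which otherwise ran from 26.5 to 27.7 CPM. The gap to the next mouse was 0.674 of the group's range. That library had the fewest gene counts, 11737554. Without it the diet estimate of Neurod1 was -0.06, against -0.03 with it.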

How the results depend on the processing

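For maternal diet no marker passed under any of the 20 alternatives run, and the lowest adjusted p of a marker was 0.578. The direction held in 161 of 179 values. It turned for Sox11 with the replicate block (0.052) and in females alone (0.24), for Mki67 with the block (-0.0034), with the share of reads on no gene as a term (-0.030) and in males alone (-0.016), and for Eomes in males alone (-0.20). Without 1 mouse each, Sox11 ran from -0.22 to 0.039, Mki67 from -0.10 to 0.10, Neurod1 from -0.066 to 0.0051, Top2a from 0.18 to 0.44, Calb2 from -0.23 to -0.05, Igfbpl1 from 0.14 (without FD female 1) to 0.35, Dcx from 0.08 (without CD female 1) to 0.17, Nes from 0.03 (without CD male 1) to 0.12 (without CD female 2 or FD female 3) and Eomes from 0.48 to 1.001. CD male 3 has no FD mouse of its sex and number, so the block fit took no diet difference from it. The block and the fit without CD male 3 are therefore not independent settings. Without CD male 3 Sox11 was at 0.039, Mki67 at -0.020 and Top2a at 0.18. The replicate block changed no call of a marker, and Eomes was at 0.63 with it. Calb2 was then at -0.16 (SE 0.06) and Dcx at 0.17 (SE 0.07), both further from 0 than without the block. Igfbpl1 was at 0.19, Nes at 0.08 and Neurod1 at -0.04 with the block. Eomes had no value with edgeR's own filter on low counts, which removes it. The cause of these turns was not tested.

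For sex, Calb2 passed with DESeq2 (-0.25) and without the filter (-0.26), which made the number of markers past the threshold 1 in both, and without 1 mouse each it ran from -0.32 to -0.19 and that number from 0 to 1. Directions turned for Sox11 in CD mice alone (0.26), for Dcx (-0.017) and Neurod1 (-0.026) in FD mice alone, and for Dcx (-0.013) and Mki67 (-0.043) with the share as a term. Without 1 mouse each, Sox11 ran from -0.20 to 0.11 and Neurod1 from -0.025 to 0.030. The count of sex calls over all genes ran from 18 without CD male 1 to 3244 without CD female 2. For the slope on the share, sex as a further term gave 0.092 for Dcx, -0.097 for Calb2 and 0.027 for Top2a. Without 1 mouse each, the slope of Dcx ran from 0.068 to 0.11, of Eomes from -0.40 (then past the threshold, without CD male 2) to -0.17, of Sox11 from -0.14 to 0.089 and of Mki67 from 0.11 to 0.17 (then past the threshold, without FD male 2). Low counts limit Eomes most, and differences of the size of its interval could not be resolved.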
